A study of Homo sapiens with 6 samples.

Results

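The mitochondrial ribosomal proteins build the ribosome that works inside mitochondria. The 78 genes described here were taken by name, as every protein_coding gene of GENCODE release 29 whose symbol starts with MRPL or MRPS followed by a number, out of 58174 genes in the deposited table. The naming rule uses no measured value, although the family was picked for description with earlier results of these data known. Expression was measured by RNA sequencing in SiHa, an established cell line from a squamous carcinoma of the cervix. In the OV-BRCA1 group, 3 samples were transfected with the plasmid GV230 carrying BRCA1, and in the NC group, 3 samples received the empty GV230 plasmid. All 6 samples were collected 48 h after transfection, so every sample carries a plasmid and none is untransfected. The transfection was transient, with a lipid reagent, in 1 cell line, and each group held 3 biological replicates. BRCA1 is a tumour suppressor that acts in repair of broken DNA, and the comparison asks which transcripts differ when its level is raised.

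Mitochondria keep a small genome of their own, and the proteins it encodes are core subunits of the respiratory chain. They are translated by a dedicated ribosome whose 2 rRNAs come from the mitochondrial genome and whose proteins all come from nuclear genes, are made in the cytosol and are imported. The names MRPL and MRPS stand for the large subunit, which joins amino acids, and the small subunit, which reads the mRNA. Part of the proteins are counterparts of bacterial ribosomal proteins, and others are specific to mitochondria. Some names are historical, since MRPS30 and MRPS18A sit in the large subunit and MRPS36 belongs to the oxoglutarate dehydrogenase complex. By position, 51 of the 78 members are large subunit proteins and 26 are small subunit proteins, and MRPS36 was counted in neither.

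BRCA1 had 35.7, 40.8 and 34.9 FPKM (a fragment level scaled to transcript length and library size) in the OV-BRCA1 samples and 20.1, 14.9 and 21.7 FPKM in the NC samples, so the groups did not overlap. Sample profiles correlated at 0.985 to 0.986 within groups and at 0.951 to 0.955 between groups. Of 9 epithelial markers, KRT7, KRT8, KRT17, KRT18 and EPCAM reached 1 FPKM, while KRT5 and TP63, which mark basal squamous cells, stayed below that level. Among the leukocyte markers, PTPRC was listed at 0 in all samples and CD14 alone exceeded 1 FPKM, with 6.65 to 9.04 FPKM in OV-BRCA1 and 17.8 to 20.4 FPKM in NC samples. Of 5 fibroblast markers COL1A1 alone exceeded 1 FPKM, with 3.03 to 3.56 against 5.96 to 6.61 FPKM, and LUM was listed at 0. The part of these differences in the members' values was not tested. Of 4 endothelial markers VWF and KDR were also listed at 0, and CDH5 had at most 0.0311 FPKM. PECAM1 had 0.730, 1.45 and 0.882 FPKM in OV-BRCA1 and 0.692, 0.788 and 0.629 FPKM in NC samples. Transcripts of the mitochondrial genome made up 14.8% to 17.2% of the summed FPKM in OV-BRCA1 samples and 21.0% to 23.2% in NC samples. FPKM is scaled to the whole library, and the part of this shift in the members' values was not tested beyond the scaling alternatives.

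All 78 members passed the filter of 0.5 FPKM in at least 3 samples. In the OV-BRCA1 group 17 members rose and 8 fell at an adjusted p below 0.05 (limma, with Benjamini-Hochberg adjustment over all 16321 genes tested), and 53 did not pass. The changes were small: the log2 fold changes, on the log2(FPKM + 1) scale, ran from -0.69 to 0.83, with a median of 0.08, and 52 of 78 were above 0. Over all genes tested the median was -0.04, 35.3% were called, 16.4% were called higher and 18.9% were called lower. The members' shares were 21.8% higher and 10.3% lower, and no list test was run. None of the 78 reached the study's criterion, which asks in addition for an absolute log2 fold change above 1 and which 3.99% of all genes reached, 2.89% in the higher and 1.1% in the lower direction. At an unadjusted limma p below 0.05, 20 members were higher and 10 lower, none of them past that size. In the higher direction the 3 values of each group did not overlap for 24 of 78 members, against 3823 of 16321 genes (23.4%). In the lower direction this held for 10 of 78 members, against 4464 of 16321 genes (27.4%). In bulk RNA such as this, fewer cells of a type and less RNA per cell cannot be told apart.

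**Figure D1:**
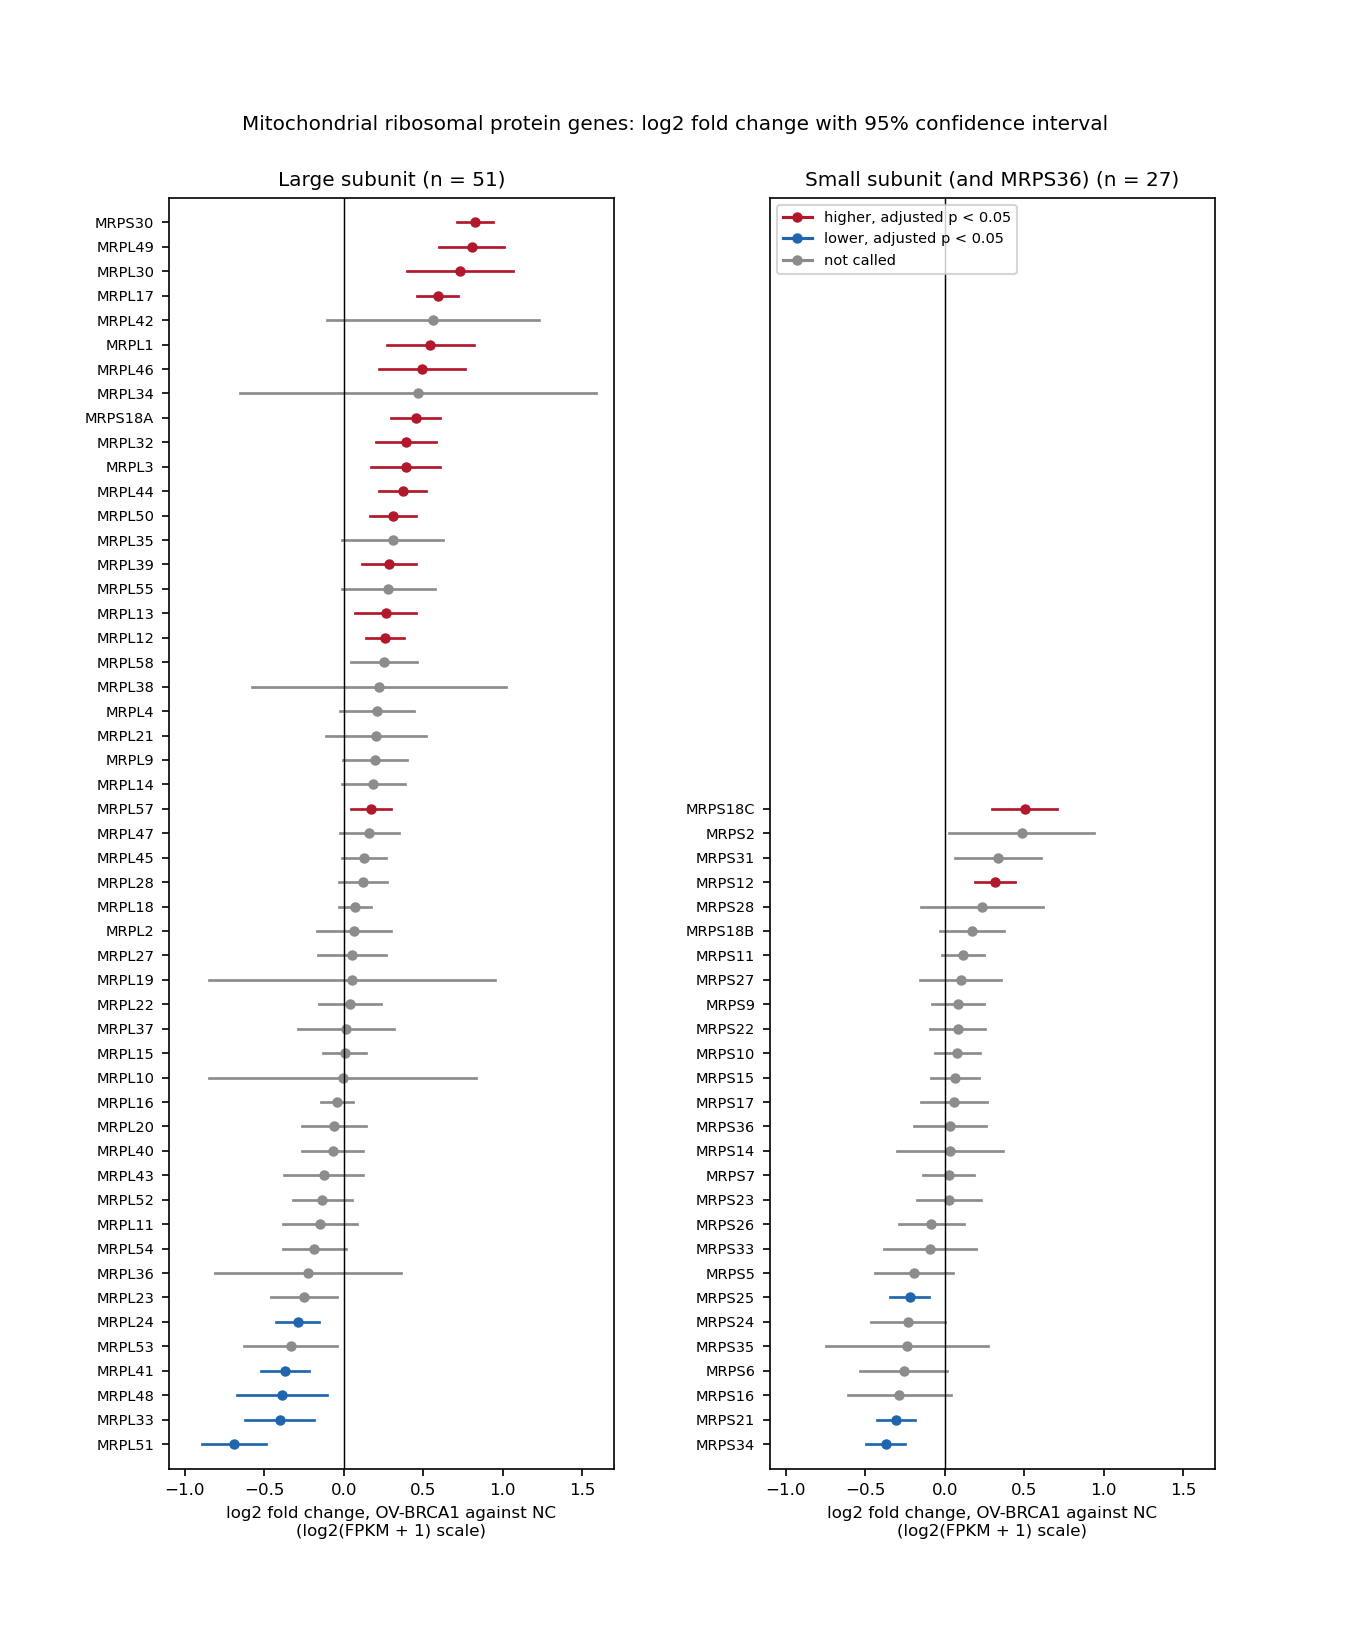
Log2 fold change of each of the 78 members, OV-BRCA1 against NC, on the log2(FPKM + 1) scale, as a point with its 95% confidence interval from limma, with the large subunit on the left and the small subunit with MRPS36 on the right. Red marks the 17 members called higher and blue the 8 called lower, and MRPL34, MRPL19, MRPL10 and MRPL38 have the widest intervals.

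The summed level of the family overlapped between groups in FPKM and was higher in the OV-BRCA1 samples as a share of all genes. It was 2888, 2836 and 2961 FPKM in the OV-BRCA1 samples and 2753, 2788 and 2877 FPKM in the NC samples, or 2895 ± 62.4 against 2806 ± 64.1 (SD, n = 3 each), and the groups overlapped. Taken as a percent of the summed FPKM of nuclear protein-coding genes, the family stood at 0.793 ± 0.0142 in OV-BRCA1 and 0.790 ± 0.0159 in NC samples, and these groups overlapped too. As a percent of the summed FPKM of all genes, which includes the mitochondrial transcripts, it was 0.631, 0.619 and 0.641 in the OV-BRCA1 samples against 0.572, 0.569 and 0.602 in the NC samples, a ratio of means of 1.08 with no overlap. The large subunit proteins summed to 1968 ± 78.1 against 1860 ± 60.6 FPKM and the small subunit proteins to 916 ± 18.3 against 935 ± 30.3 FPKM. None of these sums was tested.

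Both subunits held rises and falls. Among the 51 large subunit members, 15 rose and 5 fell, with a median log2 fold change of 0.16, and 9 rose and 2 fell when only the most abundant transcript was used. Among the 26 small subunit members, 2 rose and 3 fell, with a median of 0.05. The shares called higher and lower were 29.4% and 9.80% in the large and 7.69% and 11.5% in the small subunit. Over all genes tested they were 16.4% and 18.9%. The difference between the subunits was not tested. Of the 46 members with a bacterial counterpart 9 rose and 3 fell, and of the 31 members counted as mitochondria-specific 8 rose and 5 fell, with a median of 0.08 in each class. MRPS18A, which rose, and MRPS18B are counted as mitochondria-specific for their place in the ribosome, although they have a bacterial ancestor. Of the 21 mitochondria-specific large subunit proteins, 8 were higher and 3 lower. None of the 10 small subunit proteins of that kind rose at the adjusted threshold in limma, where 1 was higher at an unadjusted p below 0.05, and 2 of them fell.

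MRPS30 (ENSG00000112996, chr5:44808925-44820428 on hg38) had the highest log2 fold change of the family. It is a large subunit protein without a bacterial counterpart. It stood at 78.3, 76.2 and 78.3 FPKM in the OV-BRCA1 samples and at 44.8, 41.9 and 43.3 FPKM in the NC samples. The groups were far apart, with each sample within a few FPKM of its group mean. The means differed 1.79-fold, and the log2 fold change was 0.83 ± 0.0463 (SE, n = 3 each, limma adjusted p = 8.22e-05). Its most abundant transcript, MRPS30-202, carried 90.7% of the gene's FPKM and had 71.8, 68.9 and 72.2 FPKM against 40.2, 37.0 and 38.9 FPKM. MRPS30-DT, which starts 148 bases away on the opposite strand, had a log2 fold change of 0.12 at levels near 1 FPKM and was not called.

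MRPL49 (ENSG00000149792), another large subunit protein found only in mitochondria, had 17.2, 20.6 and 17.9 FPKM in the OV-BRCA1 samples against 9.81, 9.96 and 10.7 FPKM in the NC samples. Its log2 fold change was 0.80 ± 0.0843 (SE, limma adjusted p = 0.000947). This rise was spread over several transcripts, and the most abundant, MRPL49-202, is annotated as a processed transcript with no coding sequence and made up 28.1% of the gene. When only the most abundant transcript of each gene was used, MRPL49 was no longer called, at a log2 fold change of 1.52 (limma adjusted p = 0.136). The gene is overlapped on the opposite strand by FAU, which encodes a ubiquitin-like protein fused to a cytosolic ribosomal protein, and by SYVN1, an E3 ubiquitin ligase. Both moved the other way, with log2 fold changes of -0.43 and -0.56, although the call for FAU held in 2 of the 6 fits that left out a sample and SYVN1 stood at 0.42 without a call when only its most abundant transcript was used. Strand use in the counting is not given in the sources used here, so reads of overlapping genes may not be told apart.

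Among large subunit proteins with a bacterial counterpart, MRPL30, MRPL17 and MRPL1 rose most. MRPL30 had 14.5, 13.5 and 19.4 FPKM against 9.001, 8.38 and 9.70 FPKM, and the third OV-BRCA1 sample stood above the other two. MRPL17, which lies near the exit of the peptide tunnel, had 37.8, 35.97 and 36.7 FPKM against 23.8, 25.1 and 23.3 FPKM. MRPL1, the protein of the mobile stalk at the exit side for tRNA, had 11.5, 12.3 and 12.6 FPKM against 9.38, 7.97 and 6.82 FPKM. No NC value reached the OV-BRCA1 range in any of these genes. The log2 fold changes were 0.73 ± 0.138 for MRPL30, 0.59 ± 0.0531 for MRPL17 and 0.54 ± 0.113 for MRPL1 (SE, limma adjusted p = 0.00889, 0.000508 and 0.0123). MRPL30 and MRPL1 lost the call when only the most abundant transcript was used, at 0.39 and 0.48. MRPL1 also lost it with protein_coding transcripts only, and MRPL17 kept its call in each of the 16 alternatives.

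MRPL46, which binds in the central protuberance, had 32.9, 33.0 and 42.2 FPKM in the OV-BRCA1 samples and 25.1, 27.0 and 23.5 FPKM in the NC samples, a log2 fold change of 0.49. The groups were apart, but the call was lost without the third NC sample, with the replicate block and with the most abundant transcript only, at log2 fold changes of 0.44, 0.49 and 0.57. MRPL32, whose cleavage by a mitochondrial protease is a step of ribosome assembly, had a log2 fold change of 0.39, with 64.4, 75.3 and 76.3 FPKM against 53.3, 57.1 and 53.2 FPKM. MRPL12, which forms the stalk that receives translation factors and is one of the more abundant members, had 88.5, 82.7 and 88.5 FPKM against 74.1, 72.1 and 70.3 FPKM, a log2 fold change of 0.26. In each of these genes every OV-BRCA1 value lay above every NC value. The other large subunit members that rose were MRPL3, next to the peptidyl transferase centre, at 0.39, MRPL44 at 0.37, MRPL50 at 0.31, MRPL39 at 0.29, MRPL13 at 0.26 and MRPL57 at 0.17 on the log2 scale. The call for MRPL50 was lost, at 0.14, once trends of fold change with transcript length and GC content were removed. The calls for MRPL13 and MRPL57 were close to the threshold (limma adjusted p = 0.0445 and 0.0446). MRPL13 kept its call in 1 of the 6 fits that left out a sample and MRPL57 in 0 of 6, and MRPL39 and MRPL3 kept theirs in 3 and 4 of 6. MRPL3, MRPL39 and MRPL57 also lost the call with the most abundant transcript only, at 0.42, 0.45 and 0.17.

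The 3 paralogs MRPS18A, MRPS18B and MRPS18C descend from 1 bacterial protein, and each has its own place in the ribosome. MRPS18A, placed in the large subunit, had 26.7, 28.9 and 26.1 FPKM against 20.6, 19.0 and 19.3 FPKM, a log2 fold change of 0.45 ± 0.0642 (SE, limma adjusted p = 0.00301). MRPS18C, placed in the small subunit, had 26.4, 26.2 and 27.9 FPKM against 18.1, 21.0 and 17.1 FPKM, a log2 fold change of 0.50 ± 0.0842 (SE, limma adjusted p = 0.00558). MRPS18B, also a small subunit protein, had 22.1, 19.4 and 22.0 FPKM against 17.9, 17.7 and 20.4 FPKM, so its groups overlapped, and its log2 fold change of 0.17 was not called (limma adjusted p = 0.159). The difference between MRPS18B and its paralogs was not tested. Besides MRPS18C, MRPS12, a decoding protein in which bacterial changes give streptomycin resistance, was the small subunit member that rose, with 60.3, 55.2 and 59.6 FPKM against 46.3, 47.5 and 46.1 FPKM. Its log2 fold change was 0.32. The rise lay in MRPS12-202, with 27.9, 22.5 and 28.9 FPKM against 13.8, 15.0 and 15.7 FPKM, while the most abundant transcript, MRPS12-201, gave a log2 fold change of -0.10 that was not called.

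MRPL51 (ENSG00000111639, chr12:6491886-6493841 on the minus strand) had the lowest log2 fold change. This large subunit protein found only in mitochondria had 70.3, 58.1 and 61.3 FPKM in the OV-BRCA1 samples and 107, 96.6 and 104 FPKM in the NC samples. The lowest NC sample was well above the highest OV-BRCA1 sample. The mean in the OV-BRCA1 group was 0.618 times that in the NC group, with a log2 fold change of -0.69 ± 0.0821 (SE, limma adjusted p = 0.0015). The main coding transcripts moved together, since MRPL51-201 had 16.8, 20.5 and 17.8 FPKM against 28.2, 25.4 and 27.7 FPKM and MRPL51-205 had 15.9, 13.9 and 15.6 FPKM against 26.3, 27.2 and 29.6 FPKM. NCAPD2, a condensin subunit that overlaps MRPL51 on the opposite strand, fell as well, by 0.79 on the log2 scale.

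MRPS34 (ENSG00000074071) fell most in the small subunit. It is a protein found only in mitochondria, and inherited loss of it is a known cause of Leigh syndrome. It had 76.0, 72.6 and 70.1 FPKM in the OV-BRCA1 samples and 97.5, 91.9 and 94.1 FPKM in the NC samples. The groups were widely separated, and the log2 fold change was -0.37 ± 0.0504 (SE, limma adjusted p = 0.00255). MRPS21, the counterpart of a bacterial small subunit protein, had 48.2, 48.3 and 49.5 FPKM against 57.5, 62.3 and 61.3 FPKM, a log2 fold change of -0.30. MRPS25, found only in mitochondria, had 29.98, 29.3 and 28.3 FPKM against 35.1, 34.0 and 33.4 FPKM, a log2 fold change of -0.22, and its call was lost without the first NC sample, without the third OV-BRCA1 sample or with the most abundant transcript only, at -0.20, -0.20 and -0.18. In none of the 3 did the groups overlap. NR2C2, which overlaps MRPS25 on the opposite strand, was also called lower, at -0.32.

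The other falls were in the large subunit. MRPL33, a small protein with a bacterial counterpart, had 50.98, 47.5 and 56.4 FPKM against 63.3, 66.9 and 75.4 FPKM, a log2 fold change of -0.40. BABAM2, which overlaps MRPL33 on the same strand, was also called lower, at -0.48, and RBKS, which overlaps it on the opposite strand, was not called. MRPL41, which has also been described as a binding partner of the apoptosis regulator BCL2, had 46.0, 40.2 and 40.9 FPKM against 55.6, 54.6 and 54.6 FPKM, a log2 fold change of -0.37. MRPL24, an early-binding protein of the large subunit, had 30.2, 33.5 and 32.6 FPKM against 38.9, 40.2 and 39.2 FPKM, a log2 fold change of -0.29. These groups did not overlap, but MRPL33 and MRPL24 lost the call with the most abundant transcript only, at -0.20 and -0.18. MRPL48, one of the less abundant members, had 10.1, 7.57 and 9.70 FPKM against 12.9, 12.6 and 11.1 FPKM, and its log2 fold change of -0.39 stayed called in 1 of the 6 fits that left out a sample. MRPL41 was not called, at -0.13, once the trends of fold change with transcript length and GC content were removed.

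**Figure D2:**
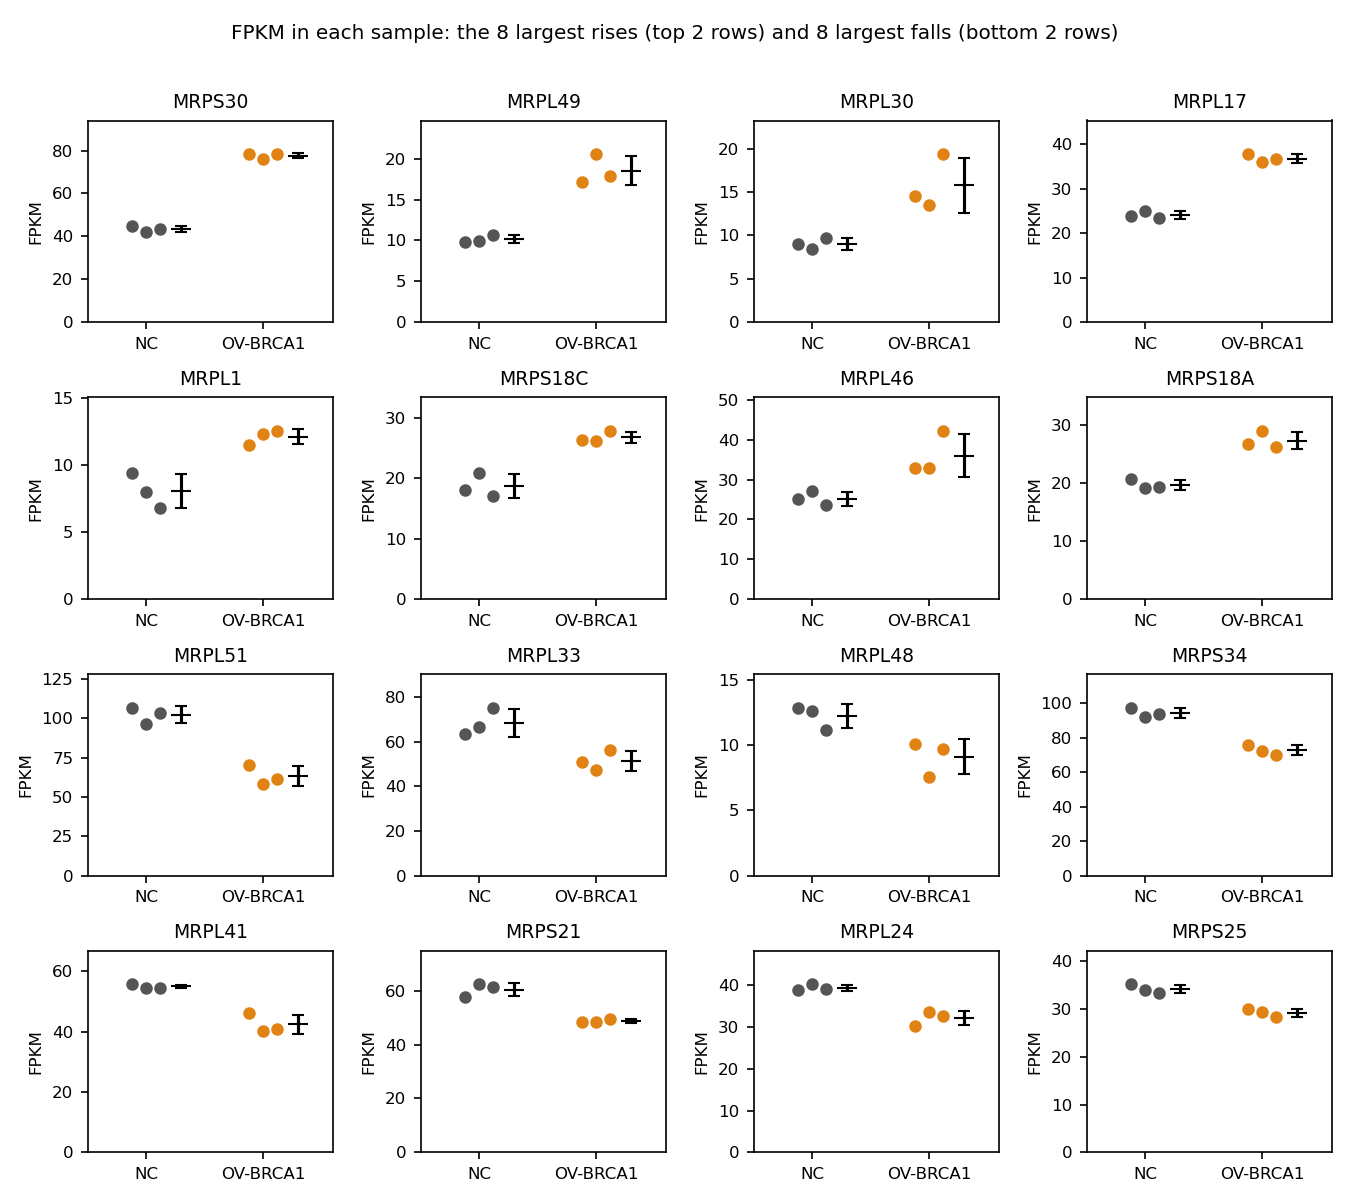
FPKM of the 8 members with the largest rises (upper rows) and the 8 with the largest falls (lower rows), 1 point per sample on an axis from 0, with the group mean and SD (n = 3) beside the points. In every panel the OV-BRCA1 and NC points do not overlap, from MRPS30 at 76.2 to 78.3 against 41.9 to 44.8 FPKM to MRPS25 at 28.3 to 29.98 against 33.4 to 35.1 FPKM.

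Levels within the family spread over 17.6-fold, from 5.34 to 94.0 FPKM as the mean of all 6 samples, although most of these proteins occur once in each ribosome. The median member stood at 31.2 FPKM, against 10.1 FPKM for the nuclear protein-coding genes tested, and FPKM is a level per transcript length. The most abundant was MRPS15, a small subunit protein that binds the rRNA early, with 90.3, 97.2 and 100.995 FPKM against 86.9, 96.7 and 92.1 FPKM. MRPS24, MRPL28 and MRPL18 followed. MRPS24 had 78.1, 88.3 and 72.3 FPKM against 103, 86.5 and 90.8 FPKM, with groups that overlapped. The least abundant was MRPL42 with 9.67, 4.82 and 5.36 FPKM against 3.33, 5.56 and 3.33 FPKM, before MRPS23 with 6.72 to 7.93 FPKM against 6.79 to 7.21 FPKM. MRPL1 and MRPL48 were next from below. Neither the 4 highest nor the 2 lowest members were called, and the median level was 32.6 FPKM in the large and 27.5 FPKM in the small subunit.

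The members nearest to no difference were MRPL15, MRPL10 and MRPL37, and they differed in how firmly that was measured. MRPL15 had 26.0, 24.4 and 24.6 FPKM against 24.6, 24.2 and 25.9 FPKM, a log2 fold change of 0.01 with a 95% interval from -0.13 to 0.14. MRPL10 had 13.0, 14.1 and 29.7 FPKM against 14.6, 25.1 and 15.1 FPKM, a log2 fold change of -0.01 with an interval from -0.84 to 0.83. In MRPL10 1 sample of each group stood far above the other two. Its value ran from -0.37 to 0.23 when 1 sample was left out and was 2.31 with the most abundant transcript only, without a call in any of these fits. MRPL37 had 57.6, 55.1 and 74.0 FPKM against 58.8, 57.1 and 67.7 FPKM, with a log2 fold change of 0.02 and an interval from -0.29 to 0.32.

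Replicates agreed closely for most members, with a median coefficient of variation of 6.83% in OV-BRCA1 and 5.88% in NC samples. It exceeded 25% in at least 1 group for 8 members, none of which was called: MRPL38, MRPL34, MRPL19, MRPL10, MRPL42, MRPL36, MRPS35 and MRPS28, named here after their values were seen. MRPL34 had 66.1, 19.4 and 68.0 FPKM in the OV-BRCA1 samples and 31.3, 31.4 and 33.3 FPKM in the NC samples. The second OV-BRCA1 sample lay below every NC sample and the other two lay above. The values differed by transcript, since MRPL34-203 had 41.2, 1.19 and 44.5 FPKM in the OV-BRCA1 samples while MRPL34-206 had 0, 8.40 and 0 FPKM, and in the NC samples they had 14.8, 9.05 and 10.4 FPKM and 11.8, 14.0 and 16.1 FPKM. MRPL10 showed the same kind of spread, with MRPL10-203 at 1.45, 5.95 and 20.9 FPKM in the OV-BRCA1 samples and at most 1.80 FPKM in the NC samples. The table divides the 78 members into 498 transcripts, a median of 5 each, and 17 members had over 90% of their FPKM in 1 transcript. How far the division of reads between overlapping transcripts sets these values was not tested.

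**Figure D3:**
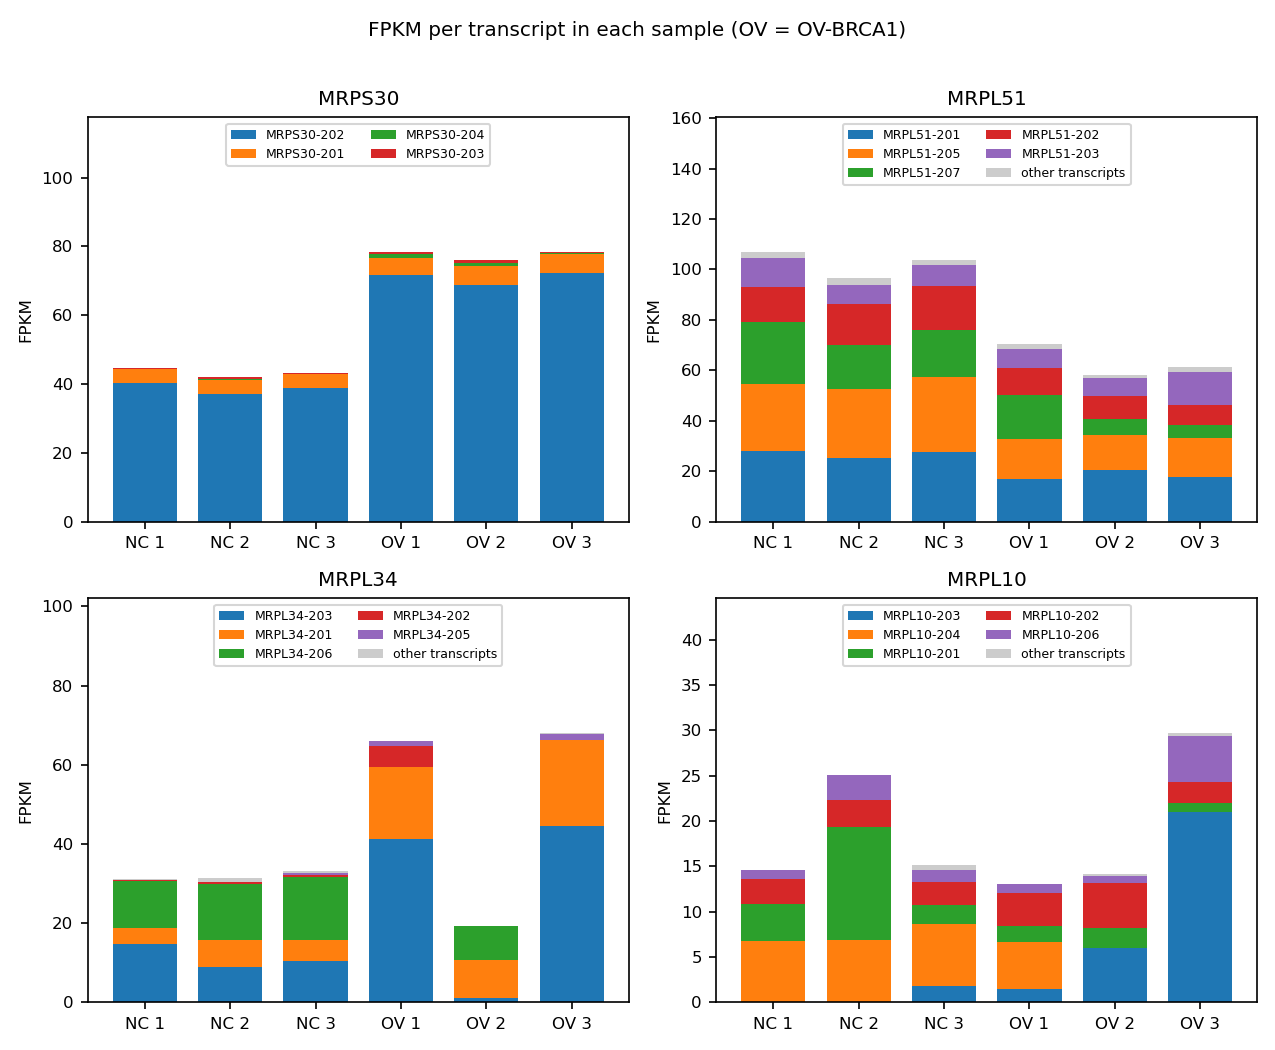
FPKM per transcript, stacked to the gene's total, in each of the 6 samples for MRPS30, MRPL51, MRPL34 and MRPL10, with the 5 most abundant transcripts in colour and the others in grey. MRPS30 is nearly all MRPS30-202 in each sample, MRPL51 falls over several coding transcripts, and in MRPL34 and MRPL10 single samples stand apart from their own group.

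The members that rose had longer transcripts at the median than those that fell. The median length of the most abundant transcript was 1643 bases in the 17 members called higher, 1125 bases in the 8 called lower and 1182 bases in the 53 not called. Of 14 members with a most abundant transcript under 750 bases, 0 rose (limma, also 0 at an unadjusted p below 0.05) and 1 fell. Of 30 members with 1500 bases or more, 9 rose and 1 fell. Of nuclear protein-coding genes under 750 bases, 13.3% rose and 25.7% fell, and of those with 1500 bases or more 19.9% rose and 17.6% fell. Their median log2 fold changes had the same order, with -0.14 under 750 bases, -0.09 from 750 to under 1500 bases and 0.02 above. With the trends with length and GC content removed, 26 members were called, 21 of them among the 25 called without that step, and MRPL50, MRPL13, MRPL57 and MRPL41 were no longer called. Across the 78 members, the log2 fold change correlated with length at a Spearman rho of 0.24 and with GC content at -0.21, against 0.14 and -0.23 across all genes with a length. These values are across genes that share the same 6 libraries and are given as a description.

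Some of these genes share their start region with another gene, which was counted for the members alone and not for all genes. For 26 members a protein-coding neighbour that was tested starts within 1000 bases on the opposite strand. The sign of the log2 fold change was the same in 13 of these 26 pairs, in which MRPL46 with MRPS11 is counted from both sides. MRPL46 and MRPS11, a large and a small subunit protein whose starts lie 34 bases apart, had log2 fold changes of 0.49 and 0.11, the first called and the second not. Both genes were called in 5 pairs. MRPL51 with NCAPD2 and MRPS34 with EME2, a subunit of a DNA junction endonuclease, fell together, and EME2 fell by 0.57 on the log2 scale. In the other 3 pairs the member rose and its neighbour fell: MRPL49 with FAU, MRPL30 with MITD1 (-0.33) and MRPS12 with SARS2 (-0.37), the mitochondrial seryl-tRNA synthetase. The call for SARS2 was lost in each of the 6 fits that left out a sample, and that for MITD1 with the most abundant transcript only and with protein_coding transcripts only, at -0.13 and -0.12. Of the 25 called members, 8 were overlapped on the opposite strand by a gene that was tested and 9 had no overlapping gene at all. On the same strand 3 called members were overlapped by a gene that was tested. The part of shared reads in these values was not tested.

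The start regions were compared for short sequence motifs in RefSeq windows of 300 bases, 250 before and 50 after the gene start on GRCh38.p14, which were at hand for 69 of the 78 members. The letters CCGGAAG, to which ETS family factors such as the GABP complex bind, were found on either strand in 42.0% of member windows and in 14.4% of all 14878 protein-coding windows. The letters AAGATGGC, to which YY1 binds, were found in 28.99% and 3.99%. An ETS match can run into a YY1 match through the shared letters AAG. At least 1 of them was held by 41 members and both by 8. The GC box GGGCGG was found in 60.9% against 59.5% and CCAAT in 28.99% against 36.4%. TATAAA was found in 2.90% against 9.36% and the E-box CACGTG in 8.70% against 8.93%. The NRF1 motif, GCGCA followed by TGCGC, occurred in 1.45% against 1.74%, and the interferon element, GAAA and GAAA with 2 free bases between, in 2.90% against 3.21%. A match is only a match of letters.

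**Figure D4:**
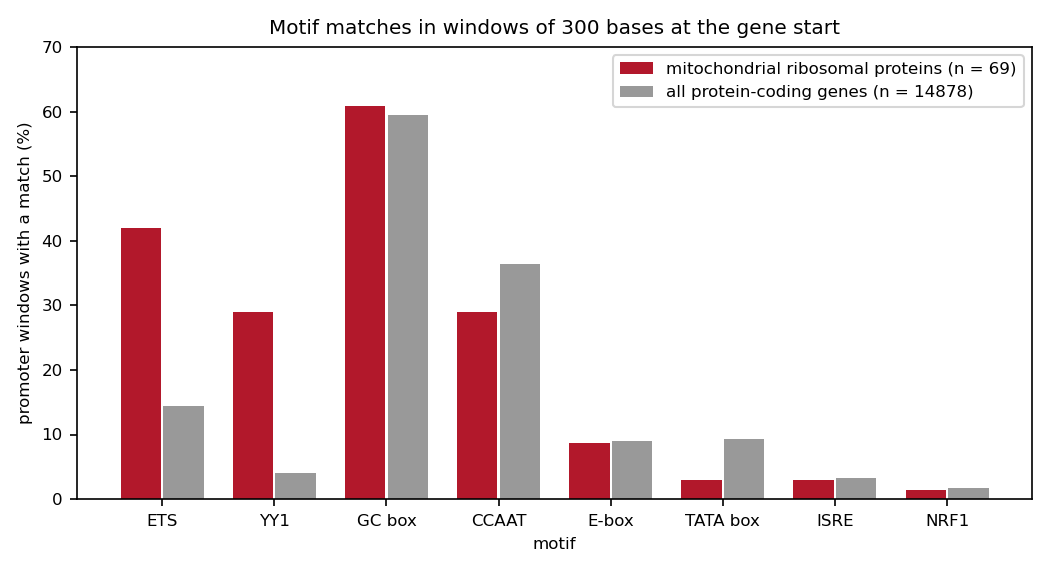
Percent of start region windows of 300 bases that hold each motif on either strand, for 69 mitochondrial ribosomal protein genes (red) and 14878 protein-coding genes (grey). The ETS and YY1 letters stand out, at 42.0% against 14.4% and 28.99% against 3.99%, and the other 6 motifs were as frequent or less frequent in the members except for the GC box at 60.9% against 59.5%.

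Of the 21 YY1 matches in members, 15 lay after the gene start and 6 before it, whereas 33 of 39 ETS matches lay before the start. Stretches of 30 bases around the YY1 match are shown for 6 of the called members that have one, since the rise with the lowest p and the fall with the lowest p are both among them. They are read on the gene's strand from 5′ to 3′, with the match in capitals, as AAGATGGC or as its reverse complement.
MRPS30 (chr5:44808949-44808978, plus strand): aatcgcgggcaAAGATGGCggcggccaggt
MRPL46 (chr15:88467362-88467391, minus strand): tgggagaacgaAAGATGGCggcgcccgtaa
MRPS18A (chr6:43687764-43687793, minus strand): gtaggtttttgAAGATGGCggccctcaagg
MRPL50 (chr9:101398577-101398606, minus strand): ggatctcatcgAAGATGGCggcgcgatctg
MRPL32 (chr7:42932143-42932172, plus strand): acccgcgctccGCCATCTTtacccgaagag
MRPL51 (chr12:6493223-6493252, minus strand): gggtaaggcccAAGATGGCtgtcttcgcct
Counted from 1 at the gene start, the match begins at base 14 in MRPS30, 9 in MRPL46, 10 in MRPS18A, 24 in MRPL50 and 22 in MRPL51.

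The ETS letters are shown for members on both sides of the comparison, MRPL3, MRPS18A and MRPS18C among those that rose and MRPL51, MRPL33, MRPS34 and MRPS21 among those that fell. In each stretch the capitals mark 1 match, CCGGAAG or its reverse complement CTTCCGG. MRPL51 holds 2 matches before the start, and both are given. MRPS34 holds 3 matches and MRPS21 holds 2, of which 1 stretch each is shown, and the next match of MRPS34 stands in lower case near the end of its stretch.
MRPL3 (chr3:131502985-131503014, minus strand): tgtaaaacgcaCCGGAAGtgggtccggcgg
MRPS18A (chr6:43687804-43687833, minus strand): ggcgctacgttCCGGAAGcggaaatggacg
MRPS18C (chr4:83455825-83455854, plus strand): gggctcgcggaCCGGAAGcacgcataaact
MRPL51, first (chr12:6493363-6493392, minus strand): gcgctccaaaaCTTCCGGcaggcggaccgg
MRPL51, second (chr12:6493348-6493377, minus strand): cggcaggcggaCCGGAAGcactgaggcggg
MRPL33 (chr2:27771700-27771729, plus strand): cgggccgtgccCCGGAAGcagttgttgttg
MRPS34 (chr16:1773145-1773174, minus strand): gacaccggcctCTTCCGGtgacttccggcc
MRPS21 (chr1:150293839-150293868, plus strand): cgtaatttccgCTTCCGGtagtgagaaccc
Among members with a window, the ETS letters were in 5 of the 16 called higher, 5 of the 8 called lower and 19 of the 45 not called. The YY1 letters were in 6, 1 and 13 of the same groups. These shares were not tested.

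Of 9 factors and coactivators known to act on genes of this kind, 2 rose and none fell in limma, also at an unadjusted p below 0.05. The share called higher was 22.2%, against 16.4% of all genes tested, of which 18.9% were called lower. GABPB1, the partner that gives the GABP complex its activating domain, had 14.0, 13.2 and 13.2 FPKM against 9.96, 10.7 and 10.4 FPKM, a log2 fold change of 0.35 ± 0.0621 (SE, limma adjusted p = 0.00688), not called, at 0.56, with the most abundant transcript only. GABPA, which holds the ETS domain, did not pass (limma adjusted p = 0.982). PPARGC1B, a coactivator of mitochondrial genes, rose by 0.33 on the log2 scale from a level under 1 FPKM, a call that held in 1 of the 6 fits that left out a sample. YY1 had a log2 fold change of 0.62 and was not called (limma adjusted p = 0.124). Without the third OV-BRCA1 sample YY1 stood at 0.95 and was called (limma adjusted p = 0.00111), and with the most abundant transcript only it stood at -0.11 without a call. NRF1 was at -0.22 and not called.

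Mitochondrial ribosomal proteins under other names were few and divided. Of 5 such genes, DAP3, a GTP-binding protein of the small subunit, rose with a log2 fold change of 0.21, and CHCHD1 and PTCD3, also of the small subunit, fell with -0.51 and -0.24. The call for DAP3 held in 1 and that for PTCD3 in 4 of the 6 fits that left out a sample. CHCHD1 had 31.8, 29.96 and 29.1 FPKM against 45.1, 45.5 and 40.4 FPKM, with no overlap. AURKAIP1 and GADD45GIP1 were not called. In this list of 5, 20% were called higher and 40% lower, against 16.4% and 18.9% of all genes tested.

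Genes that assemble and modify the mitochondrial ribosome were also mixed, with 8 of 28 higher and 4 lower. Their median log2 fold change was 0.07. The shares were 28.6% and 14.3%, against 16.4% and 18.9% of all genes tested. With 1 sample left out, which also lowered the calls over all genes, 3 to 6 were higher and 1 to 3 lower. GTPBP10, a GTPase of large subunit assembly, rose from 2.39, 1.90 and 2.21 FPKM in the NC samples to 4.56, 4.85 and 4.11 FPKM, a log2 fold change of 0.80 that was 0.67, without a call, with the most abundant transcript only. MRM1, which methylates the large rRNA, rose by 0.30. METTL17, which acts in small subunit assembly, fell by 0.44, from 35.3, 38.8 and 39.3 FPKM in the NC samples to 27.8, 26.1 and 28.8 FPKM. With protein_coding transcripts only, its log2 fold change was -0.08 and was not called. Among 16 translation factors and partners of mitochondrial mRNA, 2 rose and 1 fell, or 12.5% and 6.25%, against 16.4% and 18.9% of all genes. LRPPRC and SLIRP, which form the complex that keeps mitochondrial mRNAs stable, rose by 0.50 and 0.36, with LRPPRC at 39.3, 37.3 and 38.1 FPKM against 27.0, 26.3 and 26.7 FPKM. OXA1L, which receives new proteins from the ribosome and inserts them into the inner membrane, had a log2 fold change of -0.53, which turned to 0.15, not called, with protein_coding transcripts only. Its first NC sample differed from the others by transcript, with 64.9 FPKM in the retained_intron transcript OXA1L-209, which was listed at 0 in the other NC samples. Elongation factor TUFM and initiation factor MTIF2 were not called.

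Of 16 genes of mitochondrial transcription and RNA processing 6 rose and 3 fell, or 37.5% and 18.75%, against 16.4% and 18.9% of all genes. With 1 sample left out, 3 to 4 were called higher and 2 to 3 lower. PNPT1, the polynucleotide phosphorylase that degrades mitochondrial RNA and is also known as an interferon-inducible gene, rose most, to 56.9, 50.2 and 59.1 FPKM from 16.3, 14.8 and 15.8 FPKM in the NC samples. Its log2 fold change was 1.76 ± 0.0782 (SE, limma adjusted p = 3.07e-05), and it was past the study's criterion. The gain was not placed in the same transcript in each sample. PNPT1-202, annotated as subject to nonsense-mediated decay, had 43.6, 0 and 44.7 FPKM in the OV-BRCA1 samples and 0 in each NC sample, while the coding PNPT1-205 had 8.22, 38.9 and 8.25 FPKM against 14.2, 14.1 and 14.1 FPKM. The first and last OV-BRCA1 samples thus differed from the second, and with protein_coding transcripts only the log2 fold change was 0.01 and was not called. TRMT10C, a subunit of mitochondrial RNase P, rose by 0.47, and TFAM, which packs the mitochondrial genome and starts its transcription, rose by 0.43. FASTKD1, an RNA-binding protein of mitochondria, had a log2 fold change of -0.51.

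The RNA partners of these proteins did not move as one. MT-RNR1, the rRNA of the small subunit, stood at 894, 1115 and 1169 FPKM in the OV-BRCA1 samples and 332, 360 and 353 FPKM in the NC samples, a log2 fold change of 1.59 ± 0.104 (SE, limma adjusted p = 0.000145). MT-RNR2, the rRNA of the large subunit, stood at 1669, 1979 and 2042 FPKM against 2183, 2435 and 2216 FPKM, a log2 fold change of -0.27 that was not called (limma adjusted p = 0.0563). The groups did not overlap in either rRNA. Libraries were made from RNA held on mRNA capture beads, so these rRNA values describe what was captured. All 13 mRNAs of the mitochondrial genome fell, with a median log2 fold change of -0.63, and 8 of them were called when no filter on low values was used. MT-ATP6, an ATP synthase subunit, had 864, 1013 and 981 FPKM against 1843, 2129 and 1805 FPKM, and MT-CYB, of complex III, and MT-CO3, of complex IV, fell by 0.72 and 0.74 on the log2 scale.

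Other genes of the same organelle or of the other ribosome give the scale. Of 82 tested subunits of the respiratory chain and ATP synthase encoded in the nucleus, 45 fell and 2 rose, with a median log2 fold change of -0.32. Against 18.9% and 16.4% of all genes, these were 54.9% and 2.44% of the subunits. With the most abundant transcript only 23 fell, and with all transcripts their sum was 6815 ± 181 against 8272 ± 221 FPKM (SD, n = 3 each). NDUFA2, of complex I, had 48.7, 42.1 and 43.1 FPKM against 74.95, 74.6 and 78.6 FPKM. Of 84 tested proteins of the cytosolic ribosome, 8 rose and 15 fell, or 9.52% and 17.9%, against 16.4% and 18.9% of all genes. With 1 sample left out, 3 to 7 were called higher and 11 to 18 lower. The median of the 84 was -0.08, and RPLP2, of the stalk, and RPL13 fell by 0.50 and 0.55. RPL3L, a form of RPL3 known from muscle, had 3.55 to 5.81 FPKM against 0.440 to 0.489 FPKM. It is counted among the 8 that rose but passed the filter through the OV-BRCA1 samples alone, so its difference is given as a description. The mitochondrial ribosomal proteins, with 17 of 78 higher and 8 lower, had a median of 0.08, and the difference between these groups was not tested.

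**Figure D5:**
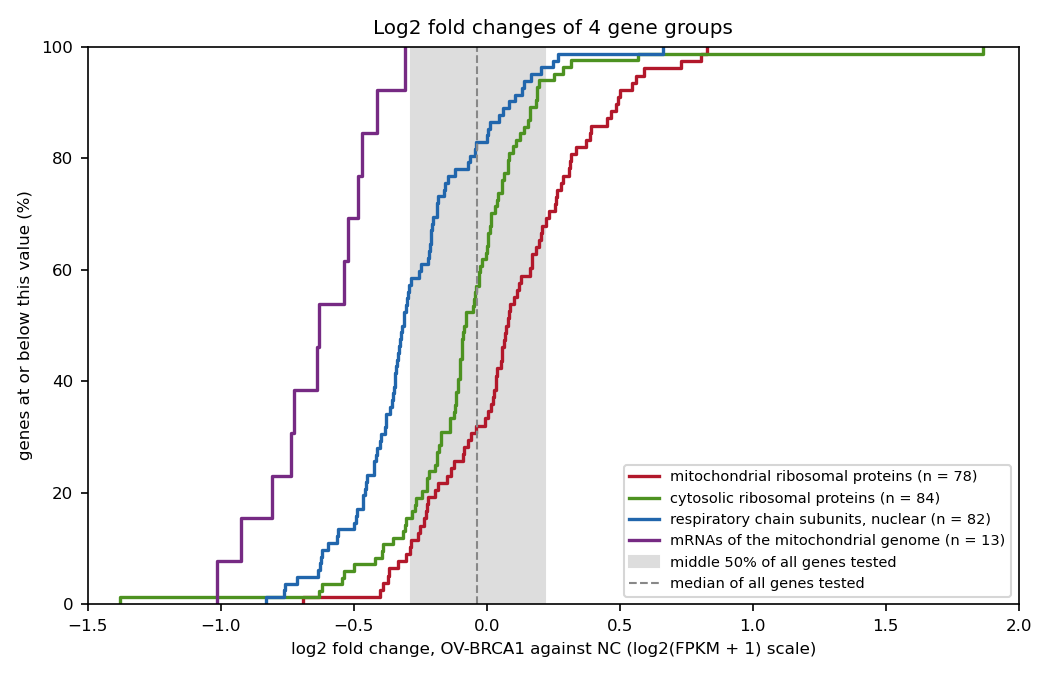
Cumulative percent of genes at or below each log2 fold change, OV-BRCA1 against NC on the log2(FPKM + 1) scale, for the 78 mitochondrial ribosomal proteins, 84 cytosolic ribosomal proteins, 82 nuclear-encoded respiratory chain subunits and 13 mRNAs of the mitochondrial genome. The grey band holds the middle 50% of all genes tested, and the medians of the groups are 0.08, -0.08, -0.32 and -0.63 against -0.04 for all genes.

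Pseudogenes of the family carried little signal. Of 75 pseudogenes named after a member, 48 were listed at 0 in all 6 samples and 3 were tested, all annotated as unprocessed and none of them called. The pseudogenes summed to 12.1 FPKM in OV-BRCA1 and 12.9 FPKM in NC samples, against 2895 and 2806 FPKM for the members. MRPL45P2 was the most abundant, with up to 7.36 FPKM, so the values of MRPL45 may share reads with it.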

How the data were processed

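The deposited files give FPKM per transcript, made by the authors from the reads, and the submitters' processing notes name FastQC, HISAT2 and hg38. The tool that computed FPKM, and whether it used strand, are not given in the sources used here. The 6 sample files equalled the series table, which held 0 columns of unmapped values. The 199167 transcripts were summed to 58174 genes, with names and positions from GENCODE 29. Replicate groups came from the labels. Because the values are FPKM and not counts, the study's count test could not be repeated, and read depth is unknown from these files: only 33.6% to 38.3% of low values lay within 0.1 of a whole multiple of their smallest step, so no reads were recovered. Precision therefore rests on 3 samples per group.

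Genes with at least 0.5 FPKM in at least 3 samples were tested on log2(FPKM + 1) with limma 3.58.1 (R 4.3.3, eBayes with trend), OV-BRCA1 against NC, all p-values two-sided and adjusted by Benjamini-Hochberg over 16321 genes. Log2 fold changes on this scale understate changes of low genes. An adjusted p below 0.05 was called. The script was tested on simulated data. The family, by a naming rule that uses no measured value, and the lists and tests were chosen with earlier results of these data known. Named members were the 8 largest rises and 8 largest falls among calls with groups that do not overlap, any past the criterion, the 4 highest and 4 lowest in level, the MRPS18 paralogs and the 3 nearest to 0. For other lists up to 3 genes with the lowest adjusted p were named, and further genes named beyond this rule were chosen after their values were seen. Alternatives covered the pseudocount, the filter, scaling, transcript choice, robust estimation, the replicate block, each sample left out and, added after seeing the data, removal of length and GC trends. Figures were drawn with matplotlib 3.10.9. Coordinates are hg38 and 1-based. 1 sequence stretch is not reported here.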

Additional observations from a re-analysis of the deposited data

How the results depend on the processing

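Of the 25 member calls, 7 rises (MRPS30, MRPL17, MRPS18C, MRPS18A, MRPL32, MRPL44 and MRPL12) and 3 falls (MRPL51, MRPS34 and MRPS21) held in all 16 alternatives, and 12 rises and 6 falls held without each sample in turn. No member call turned into a call in the other direction. With the most abundant transcript only, the log2 fold change changed sign, without a call, in MRPS12 (-0.10), OXA1L (0.22), SYVN1 (0.42) and PNPT1 (-0.0065), and with protein_coding transcripts only in OXA1L (0.15). Of 1881 single-gene values over 118 genes, 99 were no longer called, 38 became called, 5 of called genes changed sign and 1739 kept their call or stayed uncalled. Among those that stayed uncalled, 70 values in 27 genes changed sign. The median log2 fold change of the members was 0.11 with median-of-ratios scaling, 0.10 with the most abundant transcript only, 0.12 with protein_coding transcripts only and 0.038 with scaling to nuclear protein-coding genes, and 0.055 to 0.10 without 1 sample. With the most abundant transcript only, 4 members were called lower and 1685 genes higher and 1606 lower, and 1589 genes were lower with protein_coding transcripts only. The cause was not tested. Without 1 sample, 0 to 1 members were past the study's criterion, the 1 being MRPL34 without the second OV-BRCA1 sample. The same-numbered samples did not deviate together (correlations of -0.02, 0.02 and 0.01), so the numbers were not taken as pairs. With the replicate block 21 members were called, 20 of them also called without it. Over the alternatives the calls higher and lower ranged from 9 to 17 and 2 to 6 in the large subunit, 2 to 5 and 2 to 5 in the small subunit, 7 to 12 and 1 to 5 in bacterial homologs, 5 to 10 and 3 to 7 in mitochondria-specific proteins, 0 to 1 and 1 to 2 in mitochondrial ribosomal proteins with other names, 3 to 10 and 1 to 5 in assembly, 2 to 4 and 0 to 2 in translation factors, 2 to 7 and 2 to 3 in RNA processing, 0 to 2 and 0 to 1 in transcription factors, 2 to 12 and 9 to 19 in cytosolic ribosomal proteins and 1 to 4 and 23 to 49 in the respiratory chain. Mitochondrial mRNAs called lower numbered 8 with no filter on low values and up to 13 otherwise, and MT-RNR2 was called lower with the replicate block, with scaling to nuclear protein-coding genes and with length and GC trends removed.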
